A study of Mus musculus with 10 samples.

Results

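The hypoxia-inducible factor (Hif) subunits and the enzymes that control them were described across 10 libraries of MC3T3-E1, a mouse osteoblast precursor line made from the skull (labels: C57BL/6, newborn). The 10 genes were taken by name from the 29583 genes of the deposited table. They were the alpha subunits Hif1a, Epas1 and Hif3a, the beta subunits Arnt and Arnt2, the prolyl hydroxylases Egln1, Egln2 and Egln3, the asparaginyl hydroxylase Hif1an, and Vhl. The group was chosen by the counts of Hif3a at 0 μM and in treated cells, so the comparison of treated cells with 0 μM is given as a description for all 10 genes, with no p. Cells of the third generation of subclone 14 were grown in standard medium with β-ecdysterone, a plant sterol, at 0, 100, 150 or 200 μM for 5 or 10 days. Each dose and day had 1 library, so the group called treated held 6 libraries (3 doses on each of 2 days) and the 0 μM group held 2, 1 for each day. A further 2 libraries, A-5 and B-4, were labelled as untreated MC3T3-E1 cells with no time, and they entered no main comparison. A label field names the source of all libraries as mesenchymal stem cells of bone marrow, while the titles name MC3T3-E1. No label says that libraries came from separate cultures, so p-values measure the spread between these libraries. In comparisons with 0 μM that spread includes the doses. The comparisons of day and of dose within treated cells take a linear dose term out of it.

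Hif is a transcription factor made of an alpha and a beta subunit. With oxygen, the Egln prolyl hydroxylases modify the alpha subunit, Vhl then recognises it, and it is ubiquitinated and degraded. With little oxygen the alpha subunit escapes, joins Arnt or Arnt2 and binds a short DNA motif near its target genes, many of which serve glycolysis, iron handling and blood vessel growth. Egln1 and Egln3 are themselves known targets of Hif, while Hif3a has splice forms that can act against the other alpha subunits. In bone, Hif in osteoblasts is known for its part in vessel growth. All of this regulation of the alpha subunits acts on protein, which mRNA libraries do not measure.

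Promoter sequences are shown for the 4 genes that differed most between treated cells and 0 μM. Among them are Egln1 and Egln3, named above as known Hif targets. Each sequence is the 250 bases before the RefSeq start in GRCm38.p6, on the gene's strand, 5′ to 3′. Capitals mark the core of the Hif motif, ACGTG or GCGTG, searched on both strands, so that CACGT and CACGC are also marked. The windows were chr7:17062428-17062677 for Hif3a, chr7:84410039-84410288 for Arnt2, chr8:124949255-124949504 for Egln1 and chr12:54203875-54204124 for Egln3, all on the minus strand.
Hif3a: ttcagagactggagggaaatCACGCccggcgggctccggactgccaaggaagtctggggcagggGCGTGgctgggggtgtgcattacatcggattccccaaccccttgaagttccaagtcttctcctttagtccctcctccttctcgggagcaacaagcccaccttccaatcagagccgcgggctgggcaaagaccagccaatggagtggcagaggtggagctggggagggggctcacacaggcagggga
Arnt2: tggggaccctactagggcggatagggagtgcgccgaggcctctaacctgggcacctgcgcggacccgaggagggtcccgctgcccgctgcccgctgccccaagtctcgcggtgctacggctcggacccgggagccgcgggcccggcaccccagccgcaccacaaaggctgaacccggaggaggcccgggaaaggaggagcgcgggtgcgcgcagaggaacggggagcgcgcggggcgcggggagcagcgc
Egln1: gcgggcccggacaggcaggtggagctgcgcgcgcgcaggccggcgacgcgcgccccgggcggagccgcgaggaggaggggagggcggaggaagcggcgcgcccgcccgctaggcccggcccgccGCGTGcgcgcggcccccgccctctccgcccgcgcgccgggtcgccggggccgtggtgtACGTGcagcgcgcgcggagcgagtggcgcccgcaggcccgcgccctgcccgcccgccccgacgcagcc
Egln3: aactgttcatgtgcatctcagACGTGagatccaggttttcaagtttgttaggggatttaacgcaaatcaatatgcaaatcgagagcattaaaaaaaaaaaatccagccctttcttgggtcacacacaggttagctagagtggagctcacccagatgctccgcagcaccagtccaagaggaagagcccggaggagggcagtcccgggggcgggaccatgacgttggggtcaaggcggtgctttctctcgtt
Hif3a held 2 matches, starting 230 and 186 bases before the start, and Egln1 held 2, at 126 and 68 bases before it. Egln3 held 1 match, at 229 bases before the start, and Arnt2 held 0. Of 32851 RefSeq promoter windows of the same length, 38.6% held at least 1 match and 16.7% held 2 or more. RefSeq windows were found for 9 of the 10 genes, all but Epas1. Hif1a held 3 matches, 2 of which share letters, Arnt held 1, and Vhl and Hif1an held 0. Egln2 had 2 windows, with 4 matches and 1. Matches thus stood before RefSeq starts of members that were higher, lower or overlapping between the groups described below. Some of these starts lie inside the GENCODE M21 gene spans given below. The Hif1a window, chr12:73907617-73907866, and the Egln2 window with 1 match lie wholly inside their spans, and the Egln1 window partly.

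The libraries held between 27108562 and 58218009 counts, and the limit that 0 counts allow, 3 counts, stood for 0.0501 to 0.117 CPM (counts scaled to library size, by edgeR's TMM method). This limit covers counting error only. Osteoblast markers were present in every group, with Col1a1 (the main chain of type I collagen) at 225809 counts or more in the 0 μM and treated libraries, and their summed level was 22212 to 26529 CPM at 0 μM and 16759 to 34101 CPM in treated cells, most of it from Col1a1, Col1a2 and Spp1. The untreated libraries had 12291 and 14886 CPM, below both other groups. Alpl, an alkaline phosphatase used as an osteoblast marker, had 0 and 2 counts at 0 μM and 486 to 3460 in treated cells. Ibsp, a matrix protein of mineralising bone, had 27 and 34 counts at 0 μM and 2207 to 43074 in treated cells. Of the 8, the fold change was positive for 7, and 4 were called higher. Markers of other cell types were low. Summed macrophage markers were at 17.7 to 30.4 CPM at 0 μM and 31.7 to 62.6 CPM in treated cells, nearly all of it Lyz2, while Ptprc and Adgre1 were at 0 counts at 0 μM and at 13 or fewer in treated cells. Summed endothelial markers stood at 0.619 to 0.761 CPM against 2.04 to 2.64 CPM, with Kdr at 0 counts at 0 μM and at most 14 in treated cells. Summed muscle markers stood at 0.222 to 0.340 CPM against 1.004 to 2.21 CPM, with Myod1 at 2 counts or fewer, and summed adipocyte markers at 1.90 to 2.18 CPM against 2.64 to 5.63 CPM, with Cfd at 0 counts in all libraries. Of those tested, 1 of 3 macrophage, 2 of 3 endothelial, 1 of 2 muscle and 1 of 4 adipocyte markers were called higher. None was called lower. Those called higher were Lyz2 (log2 fold change 1.09), Cdh5 (3.44), Tek (1.77), Ckm (3.86) and Lep (4.06), where 13.4% of all genes were called higher. The other 2 macrophage markers tested had negative fold changes, Cd68 at −0.46 and Csf1r at −0.94. The endothelial, muscle and adipocyte markers tested all had positive ones. The part of these shifts in the results below was not tested. In bulk RNA, fewer cells of a type and less RNA per cell cannot be told apart.

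The largest contrast among the 10 genes was in Hif3a, which had 0 counts in both 0 μM libraries and between 424 and 1233 counts in every treated library. Another 3 genes were at far lower levels in treated cells than at 0 μM, namely Arnt2, Egln3 and Egln1. Hif1a, the most abundant member, overlapped between the groups. In the plot of FPKM (fragments scaled to transcript length and library size) by library, these patterns stand beside the untreated libraries.

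**Figure D1:**
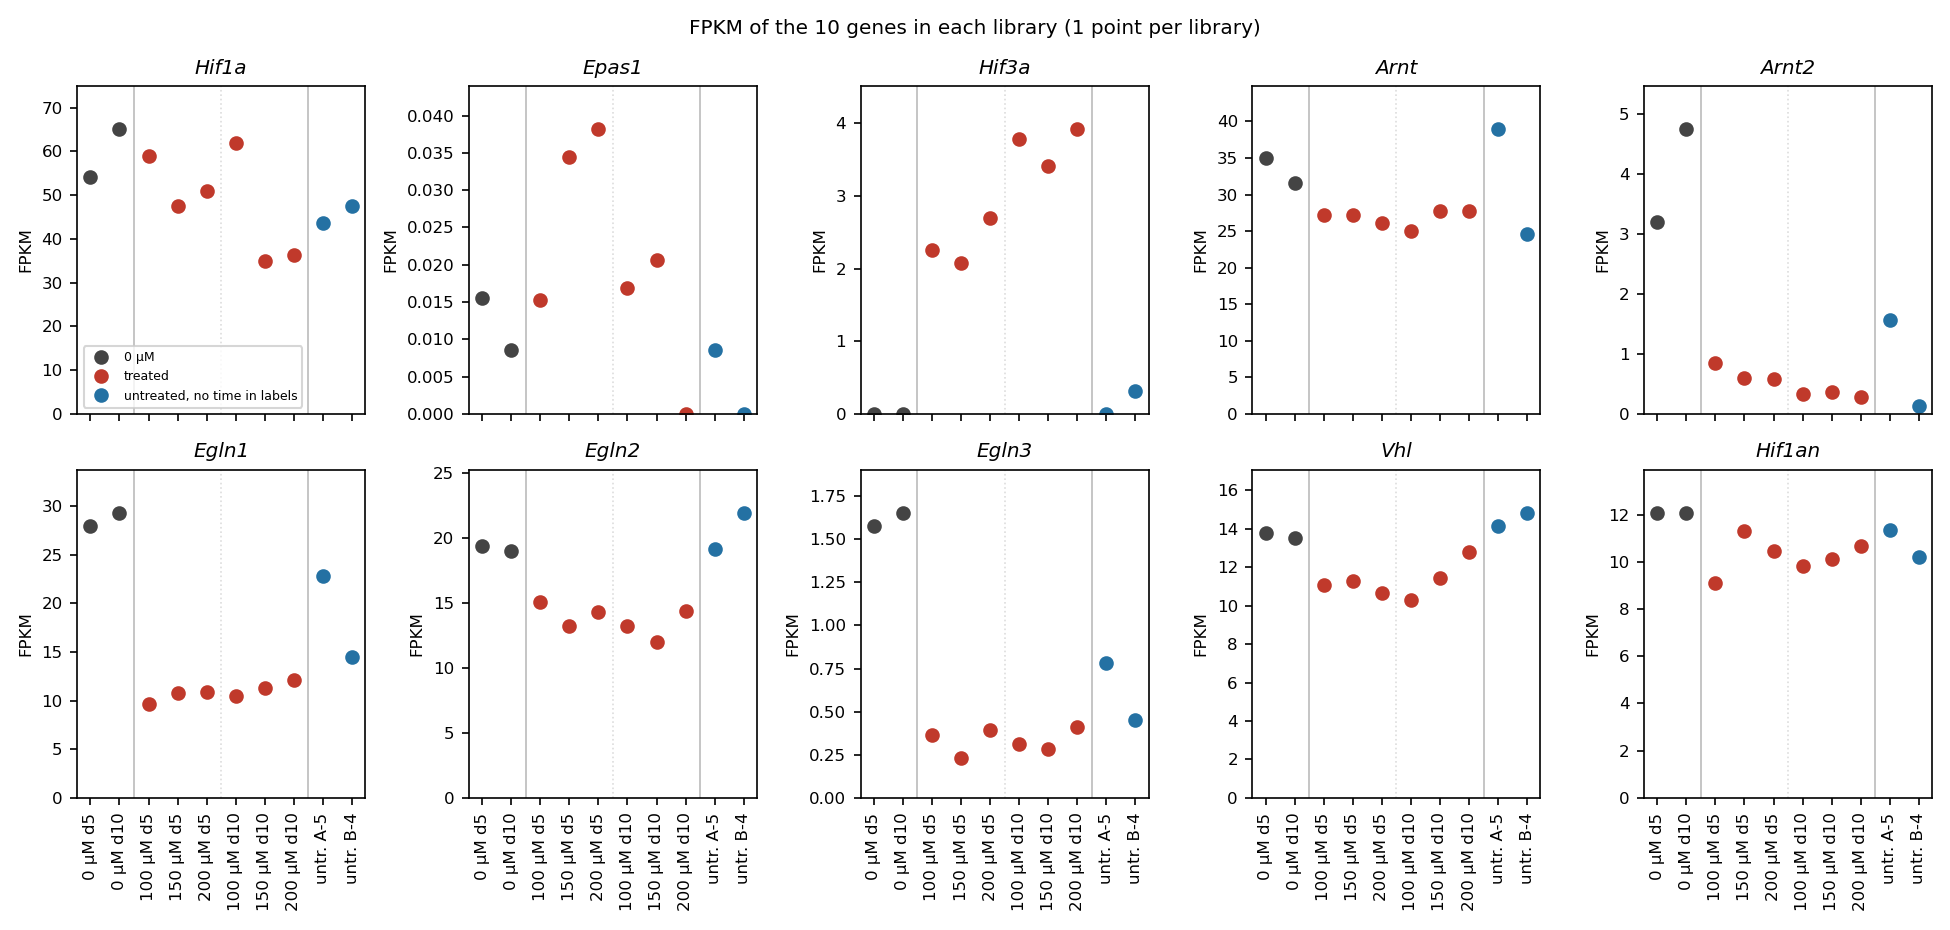
Deposited FPKM of each of the 10 genes (y axis, linear, from 0, with its own scale per gene) in the 10 libraries (x axis), 1 point per library, with 0 μM in grey, treated in red and untreated in blue. Hif3a lies at 0 at 0 μM and between 2.08 and 3.93 FPKM in treated cells, and Arnt2, Egln1 and Egln3 lie lower in all 6 treated libraries than in both 0 μM libraries.

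Of the alpha subunits, Hif3a (ENSMUSG00000004328, chromosome 7, 17031507 to 17062427 in GENCODE M21, GRCm38) had 424, 802 and 496 counts at 100, 150 and 200 μM on day 5. On day 10 it had 686, 1190 and 1233 counts at the same doses. Scaled to library size, these were 14.0, 13.4 and 16.3 CPM on day 5 and 26.6, 22.5 and 23.8 CPM on day 10. All 3 values of day 10 lay above all 3 of day 5, with 150 μM the lowest dose on each day. Since 0 μM had 0 counts, a fold is a lower bound: against the level of 3 counts in the 0 μM library of the same day, the mean of treated cells was at least 243-fold higher on day 5 and at least 255-fold higher on day 10. Hif3a passed the filter on low counts through its treated libraries alone. In the untreated libraries Hif3a had 0 counts in A-5 and 71 counts in B-4. The level in B-4, 2.37 CPM, was 12.2% of the mean of treated cells, 19.4 CPM ± 5.57 (SD, n = 6).

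Hif1a (ENSMUSG00000021109, chromosome 12, 73901375 to 73947530) encodes the oxygen-labile alpha subunit present in most cells. It was at 283 and 337 CPM at 0 μM on days 5 and 10. In treated cells it was at 311, 239 and 268 CPM at 100, 150 and 200 μM on day 5 and at 350, 193 and 195 CPM on day 10. The ranges overlapped, and the log2 fold change was −0.25 (SE 0.23, edgeR). Against the untreated libraries, which had 221 and 258 CPM, it was 0.12 (SE 0.24), so its direction was not settled by these data. The 3 treated libraries with more than 40000000 counts were the 3 with the lowest Hif1a CPM, and the part of depth in this was not tested beyond the fits given below. A gene model on the opposite strand, Gm15283, covers all 46156 bases of Hif1a, and the strand used in counting is not given in the sources used here, so reads of the pair cannot be told apart. Models on the opposite strand also overlap 908 bases of Hif3a (4833404L02Rik), 9775 of Arnt2 (Gm30873) and 11 of Egln2 (Cyp2t4). The same limit holds for those bases.

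Epas1 (ENSMUSG00000024140), the alpha subunit known from endothelium, was at or near 0, with 0 to 13 counts per library and at most 0.0382 FPKM. It did not pass the filter on low counts and was not tested. The summed FPKM of the alpha subunits was therefore nearly all Hif1a. Hif1a made up 99.97 and 99.99% of the sum at 0 μM, and in treated cells Hif3a made up 3.69 to 9.74% of it. In B-4 the share of Hif3a was 0.669%. The sum itself overlapped between groups, at 54.2 and 65.2 FPKM at 0 μM and 38.4 to 65.8 FPKM in treated cells.

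The beta subunits differed in how far they lay from 0 μM. Arnt2 (ENSMUSG00000015709, chromosome 7, 84246278 to 84410176), the beta subunit known from brain and kidney, had 21.0 CPM at 0 μM on day 5 and 31.4 CPM on day 10. In treated cells it was at 5.47, 4.03 and 4.11 CPM at 100, 150 and 200 μM on day 5, and at 2.52, 2.64 and 1.99 CPM on day 10. These means were 21.6% of the 0 μM level on day 5 and 7.59% of it on day 10. The log2 fold change over both days was −3.03 (SE 0.27), and it was −3.72 without the 0 μM library of day 5 and −2.20 without that of day 10. The untreated libraries did not share the level of 0 μM. A-5 had 10.5 CPM, and B-4 had 0.966 CPM, below every treated library. Arnt (ENSMUSG00000015522, chromosome 3, 95434388 to 95497240), the general partner of the alpha subunits, was at 140 and 131 CPM at 0 μM and at 104 to 117 CPM in treated cells, a log2 fold change of −0.29 (SE 0.08). Every treated library lay below both 0 μM libraries, while the untreated libraries, at 143 and 102 CPM, lay on either side of the treated range. Arnt2 made up 8.37 and 13.1% of the summed FPKM of the beta subunits at 0 μM and 0.994 to 3.01% in treated cells. That sum was 36.3 and 38.2 FPKM at 0 μM and 25.3 to 28.1 FPKM in treated cells.

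Among the prolyl hydroxylases, Egln1 and Egln3 were lower in treated cells by over 1 on the log2 scale, and Egln2 by less. Egln1 (ENSMUSG00000031987, chromosome 8, 124908587 to 124949324), the main hydroxylase of the Hif alpha subunits under normal oxygen, had 112 and 116 CPM at 0 μM on days 5 and 10. In treated cells it had 39.0, 41.7 and 43.6 CPM at 100, 150 and 200 μM on day 5 and 45.0, 47.9 and 49.7 CPM on day 10. The log2 fold change was −1.35 (SE 0.08), and the treated means were 37.1% and 40.9% of 0 μM on days 5 and 10. Egln3 (ENSMUSG00000035105, chromosome 12, 54178981 to 54203860), a hydroxylase that is strongly induced by low oxygen in many cells, had 234 and 154 counts at 0 μM and 26 to 65 counts in treated cells. In CPM it was at 4.67 and 4.89 at 0 μM and between 0.668 and 1.25 in treated cells, a log2 fold change of −2.23 (SE 0.24). Egln2 (ENSMUSG00000058709, chromosome 7, 27158658 to 27166802), a hydroxylase not known as a target of Hif, had 44.7 and 44.0 CPM at 0 μM and 29.3 to 35.1 CPM in treated cells, a log2 fold change of −0.44 (SE 0.10).

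For Egln1 and Egln3 the untreated libraries lay between the other groups. Egln1 was at 88.6 CPM in A-5 and 60.04 CPM in B-4, under both 0 μM libraries and over all 6 treated ones. Egln3 was at 2.25 CPM in A-5 and 1.40 CPM in B-4, in the same order. With A-5 and B-4 as the controls, the log2 fold change was −0.74 (SE 0.14) for Egln1, −0.84 (SE 0.32) for Egln3 and −0.74 (SE 0.66) for Arnt2. None of the 3 was then beyond 1 on the log2 scale.

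The summed FPKM of the 3 prolyl hydroxylases was 48.9 and 50.0 at 0 μM and 24.9 ± 1.22 in treated cells (SD, n = 6, range 23.7 to 26.9). It was 42.8 in A-5 and 36.9 in B-4. Egln1 led the sum at 0 μM, with 57.1 and 58.6% of it, and Egln2 led in every treated library, where Egln1 held 38.6 to 47.9%. The ratio of Egln1 to Egln2 FPKM was 1.44 and 1.54 at 0 μM and 0.643 to 0.941 in treated cells. In B-4 it was 0.660, within the range of the treated libraries, and in A-5 it was 1.19. Egln3 stayed a small part throughout, at 3.31% of the sum or less.

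**Figure D2:**
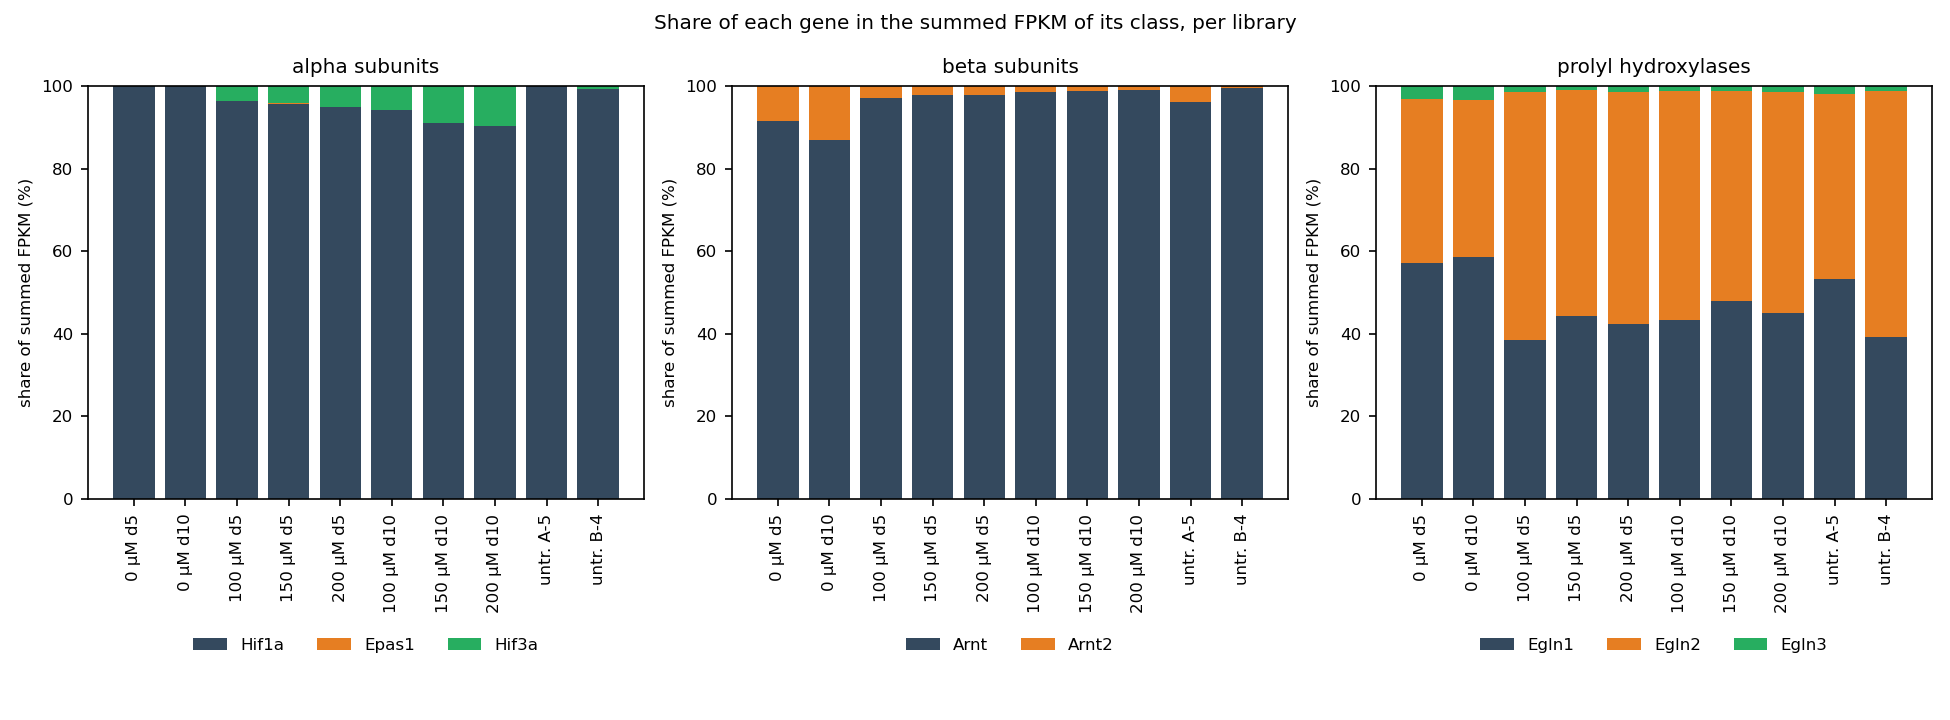
Share of each gene in the summed FPKM of its class (y axis, percent, from 0) in each library (x axis), for alpha subunits, beta subunits and prolyl hydroxylases. Hif3a holds 3.69 to 9.74% of the alpha subunits in treated cells and 0% at 0 μM, and Egln2 exceeds Egln1 in all 6 treated libraries and in B-4.

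Hif1an and Vhl had the smallest fold changes of the members tested. Vhl (ENSMUSG00000033933, chromosome 6, 113623959 to 113631633), the subunit that recognises hydroxylated Hif alpha, was at 42.8 and 41.7 CPM at 0 μM and at 33.2 to 40.8 CPM in treated cells, a log2 fold change of −0.23 (SE 0.09). Hif1an (ENSMUSG00000036450, chromosome 19, 44562850 to 44576274), which hydroxylates an asparagine of the alpha subunit and so hinders its coactivators, was at 83.4 and 82.6 CPM at 0 μM and at 63.3 to 75.6 CPM in treated cells, a log2 fold change of −0.19 (SE 0.08). For both genes every treated library lay below both 0 μM libraries. In the untreated libraries Vhl was at 42.6 and 47.8 CPM, above all treated libraries, and Hif1an was at 75.9 and 73.0 CPM.

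A call needed a change of over 1 on the log2 scale with an adjusted p below 0.05 over all genes, by edgeR's quasi-likelihood test adjusted for day. Of the 9 members tested, 4 passed these limits, with Hif3a higher and Arnt2, Egln1 and Egln3 lower. For Hif3a this was fixed by the choice of the genes and by its passing the filter through treated libraries alone. Of all 16794 genes tested, 19.4% were called, 13.4% higher and 5.98% lower. The ranges of the groups did not overlap for 8 members, 1 higher and 7 lower, where over all genes 26.3% were higher and 26.4% lower in this way. The choice of the genes used this contrast, so these counts are a description and nothing is read from them. The median log2 fold change was −0.29 over the 9 members and 0.05 over all genes.

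**Figure D3:**
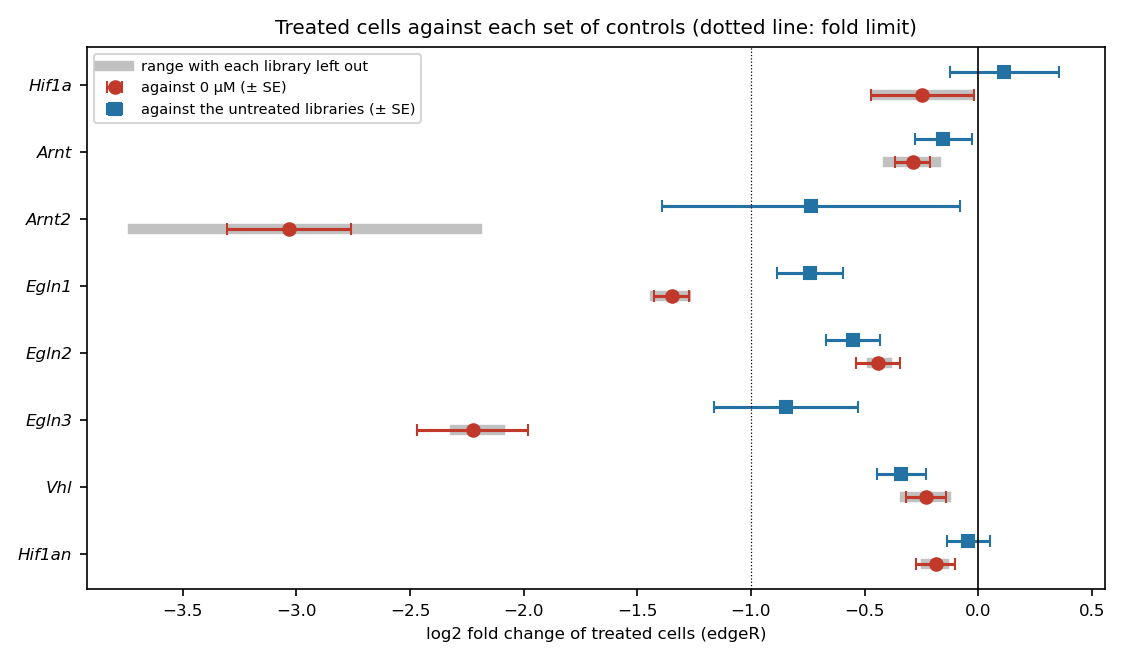
Log2 fold change of treated cells (x axis) for 8 members (y axis), against 0 μM (red points, ± SE, with the range over leaving out each library in grey) and against the untreated libraries (blue squares, ± SE). Hif3a, whose fold is a lower bound, and Epas1, which was not tested, are left out. Arnt2 is at −3.03 against 0 μM and at −0.74 against the untreated libraries, and the dotted line marks the fold limit of −1.

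On FPKM, which is per length, the order of the members differed between groups. At 0 μM the mean levels were 59.7 for Hif1a, 33.3 for Arnt, 28.6 for Egln1, 19.2 for Egln2, 13.6 for Vhl and 12.1 for Hif1an, followed by Arnt2 at 3.98, Egln3 at 1.61 and Epas1 at 0.0121, with Hif3a at 0. The ranges of neighbours in this order did not overlap, though Epas1 and Hif3a, at 5 counts or fewer, cannot be ranked. In treated cells Hif1a (48.5 ± 11.2, SD, n = 6) and Arnt (26.8 ± 1.08) again came first, clear of each other and of the rest. Egln2 (13.7 ± 1.09), Vhl (11.3 ± 0.875), Egln1 (10.9 ± 0.830) and Hif1an (10.3 ± 0.747) followed, each with a range that overlapped its neighbour's. Within each treated library Egln2 lay above Vhl, while the order of Vhl and Egln1 and that of Egln1 and Hif1an changed between libraries. Hif3a (3.03 ± 0.790) stood below them, above Arnt2 (0.502 ± 0.214) and Egln3 (0.333 ± 0.0694), whose ranges overlapped, and Epas1 (0.0209 ± 0.0139) was last.

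Day 10 was compared with day 5 within the 6 treated libraries, where the 0 μM libraries do not enter. The test was edgeR's quasi-likelihood test over 16020 genes, with dose as a covariate. Hif3a was higher on day 10, at 24.3 ± 2.13 CPM against 14.6 ± 1.54 CPM on day 5 (SD, n = 3 each), a log2 fold change of 0.74 (SE 0.13, adjusted p = 0.0326, edgeR). Its fold of 1.67 is under the fold limit, so it was not called. Arnt2 was at 2.39 ± 0.349 CPM on day 10 and 4.54 ± 0.807 CPM on day 5, without overlap, and its log2 fold change of −0.92 (SE 0.20) missed the threshold (adjusted p = 0.0612, edgeR). Egln1 differed by 0.20 (SE 0.09, adjusted p = 0.287, edgeR). The other 6 members tested had adjusted p-values of 0.491 to 0.923 (edgeR), with values from −0.19 (SE 0.18) for Hif1a to 0.15 (SE 0.10) for Vhl, and an SE of 0.34 for Egln3.

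By both limits 0 members were called for day, by edgeR and by DESeq2, where 0.936% of all genes were, 0.805% higher and 0.131% lower. At an unadjusted p under 0.05 there were 3 members, where 17% of all genes passed. By adjusted p alone, 1.6% of genes were higher and 0.618% lower, and Hif3a was the 1 member among them. The call of Hif3a by adjusted p was lost with any of 5 libraries left out, at 0.135 without 100 μM day 5, 0.0551 without 150 μM day 5, 0.0776 without 200 μM day 5, 0.129 without 100 μM day 10 and 0.148 without 200 μM day 10 (edgeR). Its fold change stayed between 0.61 and 0.87 in these fits, and its adjusted p without 150 μM day 10 was 0.0433. Arnt2 passed the adjusted p with DESeq2 (0.00411), with library totals in place of TMM (0.0362) and with genes of at least 1 count in total (0.00526).

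**Figure D4:**
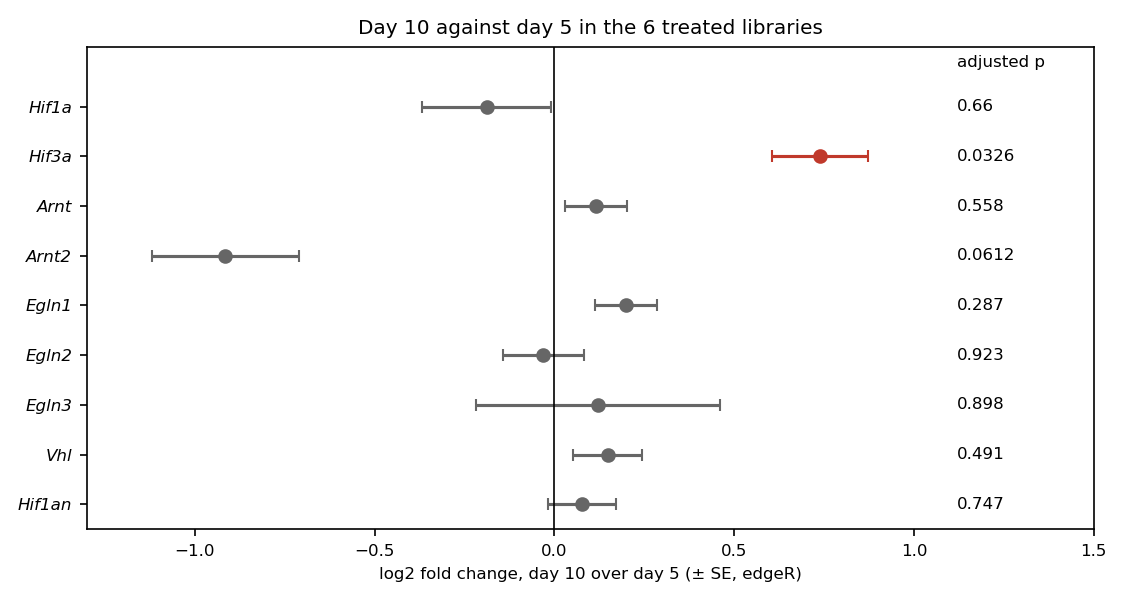
Log2 fold change of day 10 over day 5 in the 6 treated libraries (x axis, ± SE) for the 9 members tested (y axis), with the adjusted p from edgeR at the right. Hif3a, in red, is at 0.74 with an adjusted p of 0.0326, and Arnt2 is at −0.92 with an adjusted p of 0.0612.

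A trend with dose was tested in the same 6 libraries, per 100 μM and with day as a covariate. No member passed (edgeR, 0 called, 1 at an unadjusted p under 0.05, 0 by DESeq2), and of all genes 0 were called by edgeR and 2 by DESeq2. An unadjusted p under 0.05 (edgeR) was found for 2.37% of all genes. For Hif3a the slope was 0.0051 (SE 0.16, adjusted p = 1, edgeR), a value whose sign differed between scalings. Hif1a had the steepest slope, at −0.56 (SE 0.21, unadjusted p = 0.0277, adjusted p = 0.996, edgeR). It was −0.33 in a fit with a term for libraries over 40000000 counts and −0.17 without the library of 100 μM day 10. With genes of at least 1 count in total, its adjusted p was 0.0451 (edgeR). Arnt2 followed at −0.40 (SE 0.25, adjusted p = 0.996, edgeR), and the other members lay between −0.027 and 0.21.

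Whether the difference of treated cells from 0 μM changed between days was tested as an interaction over the 8 libraries. It rests on 1 library at 0 μM per day, which was assumed to vary like the treated ones, and it could not be estimated for Hif3a, which was at 0 on both days. Arnt2 differed by −1.52 on the log2 scale (SE 0.34), lower on day 10, with an unadjusted p of 0.0015 and an adjusted p of 0.349 (edgeR). DESeq2 gave an adjusted p of 0.027 for it, the 1 member called by that tool. The other members had adjusted p-values of 0.787 or more (edgeR), with Hif1a at −0.42 (SE 0.45). By edgeR 0 members were called, where 0.0119% of all genes were, 2 of 16794, and 1 member had an unadjusted p under 0.05, as did 8.31% of all genes.

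Other genes of the pathway were described in 4 lists. The lists were chosen with earlier results of these data known, so their counts and p-values against 0 μM are a description. The partners of Vhl in its ubiquitin ligase (Elob, Eloc, Cul2 and Rbx1) were all tested and had negative fold changes, with a median of −0.36. By edgeR's limits 0 of 4 were called, although all 4 had an adjusted p of 0.0253 or less. By adjusted p under 0.05 alone, 3490 of all 16794 genes tested were lower and 3790 higher (edgeR), so little is read from this. Of 15 cofactors and regulators of Hif, 14 were tested, 10 with a negative fold change, with a median of −0.32. Cited2, which competes with Hif alpha for the coactivators Ep300 and Crebbp, was the 1 called, at −1.02 (SE 0.16, adjusted p = 8.59e-04, edgeR). That call was lost without the 0 μM library of day 10, at −0.72. It was also lost without the treated libraries of 150 μM, at −0.97 without day 5 and −0.93 without day 10, and with A-5 and B-4 as the controls, at −0.81. It was lost as well with A-5 and B-4 added to 0 μM, at −0.89, with at least 10 counts in every library, at −0.96, and with no day covariate, at −0.98. Of 11 other bHLH-PAS proteins, the family of the Hif subunits, 8 were tested, 4 positive and 4 negative, with a median of −0.0037, and 0 were called by edgeR. Npas3, named after its value was seen, was the 1 with an adjusted p under 0.05, at 0.78 (SE 0.28, adjusted p = 0.0436, edgeR).

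Hypoxia targets, 29 of them tested, had a median log2 fold change of −1.01, where the median of all genes was 0.05. This list too was chosen with earlier results known, so its counts and p-values against 0 μM are a description. In treated cells 15 fell and 2 rose by these limits, where 5.98% of all genes were called lower and 13.4% higher. Car9, a carbonic anhydrase and one of the most Hif-dependent genes known, had the lowest value, −4.04 (SE 0.18, adjusted p = 6.22e-07, edgeR). Ddit4, an inhibitor of mTORC1 signalling, had the highest at 1.49 (SE 0.17, adjusted p = 1.14e-04, edgeR). With A-5 and B-4 as the controls, 5 were called lower and 0 higher, where 460 of all genes were lower and 1078 higher. Car9 then stayed called at −2.74, and Ddit4 was at −0.42 (adjusted p = 0.457, edgeR). Egln1 and Egln3, which are in no list, had values of −1.35 and −2.23 beside this median. For day, for dose and for the difference between days in the effect of treatment, 0 genes of the 4 lists were called by edgeR or DESeq2. In the same order, 12, 3 and 3 of them had an unadjusted p under 0.05 (edgeR), where 17%, 2.37% and 8.31% of all genes did.

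The 5 genes whose pattern lay nearest to that of Hif3a were found over all 10 libraries, by the root mean square difference of log2 CPM after centring each of 10366 genes. They were Tspan18 (0.47), Mettl21e (0.77), Tnfrsf19 (0.77), Oca2 (0.85) and Prr5 (0.94). Tspan18, a tetraspanin of the cell membrane, was at 0.0799 and 0.0952 CPM at 0 μM. It was at 16.5, 20.4 and 26.3 CPM at 100, 150 and 200 μM on day 5 and at 63.6, 59.7 and 59.1 CPM on day 10. In B-4 it was at 6.56 CPM and in A-5 at 0.130 CPM. Mettl21e (7.43 CPM), Tnfrsf19 (8.03 CPM) and Oca2 (5.20 CPM) were also above 5 CPM in B-4, and Prr5 was at 0.333 CPM. B-4 was among the 10 libraries that the choice of these genes used, so their levels in it are a description.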

How the data were processed

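The authors selected mRNA with oligo(dT), built TruSeq libraries and deposited 1 table with raw counts of reads per gene and FPKM values, which scale counts to transcript length and library size. The submitters' processing notes name HISAT2 2.0.4 and GATK 3.2-2, with no role given. The counting program, genome build, annotation and strand of counting are not given in the sources used here. The table also holds 39 columns of the authors' comparisons of single libraries (fold changes and p-values), which were not used. It lists 22036 Ensembl genes and 7547 new loci.

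Counts were analysed with edgeR 4.0.16 (TMM, filterByExpr, glmQLFit and glmQLFTest), with DESeq2 1.42.0 and limma 3.58.1 as alternatives, in R 4.3.3, and tables with pandas 2.3.3. P-values were adjusted by Benjamini-Hochberg over all genes tested. The 6 treated libraries were compared with the 2 at 0 μM with day as a covariate, and with each other by day and by dose. The doses served as replicates. CPM used TMM over all 10 libraries, and FPKM served to compare genes. Between treated libraries the chi-square per degree of freedom of counts was 16.1 to 164, so no 2 agreed within counting noise. Scripts were tested on simulated data.

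The members and lists were chosen with earlier results of these data known. Named were all 10 members, the called gene with the largest and the smallest fold change of each list (mean of 1 CPM or more), and the 5 genes with a symbol and at least 5 CPM in treated cells that lay nearest to Hif3a on log2 CPM (prior count 2). Aldoa, which has 2 rows, was left out of the hypoxia targets. Positions are from GENCODE M21 (GRCm38) by Ensembl identifier. Alternatives were other tests, scalings, filters, covariates and controls, and each library left out. Chosen after seeing the data were a term for libraries over 40000000 counts, limma on log2(FPKM + 1) and the refits of the hypoxia targets and named list genes.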

Additional observations from a re-analysis of the deposited data

Results flagged for a closer look

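Hif3a was found outside treated cells in 1 library. The untreated library B-4, which no main comparison used, had 71 counts of Hif3a, where both 0 μM libraries and A-5 had 0. Its 2.37 CPM was 39.5 times the level of 3 counts at 0 μM on day 5 and 24.9 times that on day 10, and the mean of treated cells was 8.22-fold higher than it. In the same library Arnt2 was at 0.966 CPM, below all treated libraries, and Ckm, a muscle marker, had 98 counts, against 27 to 63 in treated cells and 3 to 4 at 0 μM. The part of these in the reading was not tested.

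Hif1an at 100 μM on day 5 was far from the other treated libraries. It was at 63.28 CPM, where the other 5 were between 72.4 and 75.6 CPM. Its gap to the nearest of them was 0.746 of the whole range, past Dixon's limit of 0.625 for 6 samples. Chance alone passes that limit in about 1 in 20 groups, and the lowest and highest values of 10 genes were examined.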

How the results depend on the processing

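Precision was limited by 1 library per dose and day and by 2 libraries at 0 μM. Against 0 μM, the contrast that the choice of the genes used, counts past the limits are a description and no sign of stability, and that of Hif3a was fixed by the choice. The count was 4, Hif3a included, and 4 with any library left out. It was 1, Hif3a, with A-5 and B-4 as the controls. Hif1a then had the opposite sign. It was 3 with limma on log2(FPKM + 1), without Egln3, and 3 with at least 10 counts in every library, which removes Hif3a. It was 6 without the fold limit, 1 higher and 5 lower. By adjusted p alone, 3790 of all 16794 genes tested were higher and 3490 lower (edgeR). With A-5 and B-4 as the controls, 1078 of all genes were called higher and 460 lower. Hypoxia targets called lower were 13 to 15 with each library left out and 5 against the untreated libraries. Those called higher numbered 1 with DESeq2, library totals or limma, 0 with A-5 and B-4 as or among the controls, 5 without the fold limit and 1 to 2 with each library left out. Ddit4 was reversed to −0.42 against the untreated libraries. The cause was not tested for any of these, beyond the construction of the filter and the fold limit.

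For day, the members called numbered 1 with library totals (Arnt2) and 1 without the fold limit (Hif3a). For the interaction, the number was 1 with DESeq2 (Arnt2). Signs that turned were all of small values. For day, they were Arnt −0.012, Egln3 −0.00091 and Hif1an −0.052 with library totals, and Egln2 0.028 with depth class. Over libraries left out, day values ran from −0.45 to 0.022 for Hif1a, −0.11 to 0.041 for Egln2, −0.11 to 0.36 for Egln3 and −0.00044 to 0.13 for Hif1an. For dose, they were Hif3a −0.0015 with DESeq2, −0.00058 with its size factors and −0.036 without the day covariate, Arnt 0.028 and Egln2 0.014 with library totals, and Egln2 0.063 with depth class. Over libraries left out, slopes ran from −0.18 to 0.21 for Hif3a, −0.045 to 0.020 for Arnt, −0.13 to 0.081 for Egln2, −0.025 to 0.56 for Egln3, −0.012 to 0.16 for Vhl and −0.016 to 0.17 for Hif1an. For the interaction, Egln3 was −0.026 and Hif1an −0.018 with library totals, and the ranges were −0.10 to 0.040 for Egln2 and −0.19 to 0.22 for Egln3. The labels carry no replicate numbers. Pairing libraries by dose, with dose as a factor, left 0 members called for day.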
